A study of Panax japonicus with 5 samples.

Results

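The enzymes between the prenyl diphosphates and 2,3-oxidosqualene are represented here by the 7 unigenes that the pathway map of the study labels FPS, GGPS, GGR, SS or SE, out of 135235 unigenes assembled from *Panax japonicus*. They were picked by label and identifier and not by a measured value, although earlier results of these data were known when the choice was made. A unigene is a Trinity gene, the set of assembled contigs that share a gene identifier, and its level is the sum over its contigs. Poly(A) RNA of flower, leaf, secRoot (secondary root), rhizome_O (old rhizome) and rhizome_Y (young rhizome) of 1 untreated plant aged 7 years was sequenced, with 1 library per tissue. The groups therefore share 1 plant, 1 harvest and 1 assembly, and differences between tissues could not be checked against replicates and were not tested.

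The enzymes stand at the fork of isoprenoid metabolism. Farnesyl diphosphate synthase (FPS) joins C5 units made by the mevalonate pathway into farnesyl diphosphate, squalene synthase (SS) couples a pair of these head to head, and squalene epoxidase (SE) adds the oxygen that yields 2,3-oxidosqualene, the last intermediate shared by phytosterols and ginsenosides. Geranylgeranyl diphosphate synthase (GGPS) makes the longer geranylgeranyl diphosphate, which feeds carotenoids, chlorophyll side chains, gibberellins and tocopherols. The study does not spell out GGR; the abbreviation commonly stands for geranylgeranyl reductase, which saturates the geranylgeranyl chain, and in *Arabidopsis* it has also named a protein related to GGPS. FPS, SS and the SE unigenes are grouped below as the triterpene route, and GGPS and GGR as the geranylgeranyl route.

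Levels are FPKM, the number of fragments scaled to the length of the contig and the depth of the library. The libraries held 2403221 (flower), 4614642 (leaf), 4920387 (secRoot), 3382436 (rhizome_O) and 2836971 (rhizome_Y) counts. Each interval in brackets is a 95% interval exact for the summed counts, Poisson for a level and conditional for a ratio. For FPKM it is the count interval rescaled, which ignores that contigs differ in length. It covers counting error only. Leaf stood apart from the other libraries: 45060 unigenes, 70.7% of those found in leaf, were found in leaf alone, against 2.44% to 4.65% in the other tissues. Leaf also carried the green tissue markers, with 6026 FPKM summed over 9 unigenes annotated as rubisco, 967 FPKM in flower and 11.6 to 42.7 FPKM in the 3 underground tissues. Comparisons between tissues below are therefore given for the other 4 tissues, with leaf beside them.

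All 7 unigenes were close to absent from the leaf library, and outside leaf they did not share 1 pattern. FPS and SS were highest in rhizome_Y and lowest in flower, the 2 SE unigenes parted in rhizome_O, where one was high and the other low, and GGR was highest in secRoot. Of the 7, 3 were highest in rhizome_Y, where 17.8% of all unigenes had their highest level (15435 unigenes with 100 or more counts in these 4 tissues together). A further 2 were highest in rhizome_O (23.8% of all), 1 in secRoot (25.4% of all) and 1 in flower (33.0% of all). The minimum of 100 counts was met by 6 of the 7, and the other one, GGPS TR63527|c1_g1, was among the 2 in rhizome_O. With leaf entered as a candidate tissue, the count for rhizome_Y was the same.

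**Figure D1:**
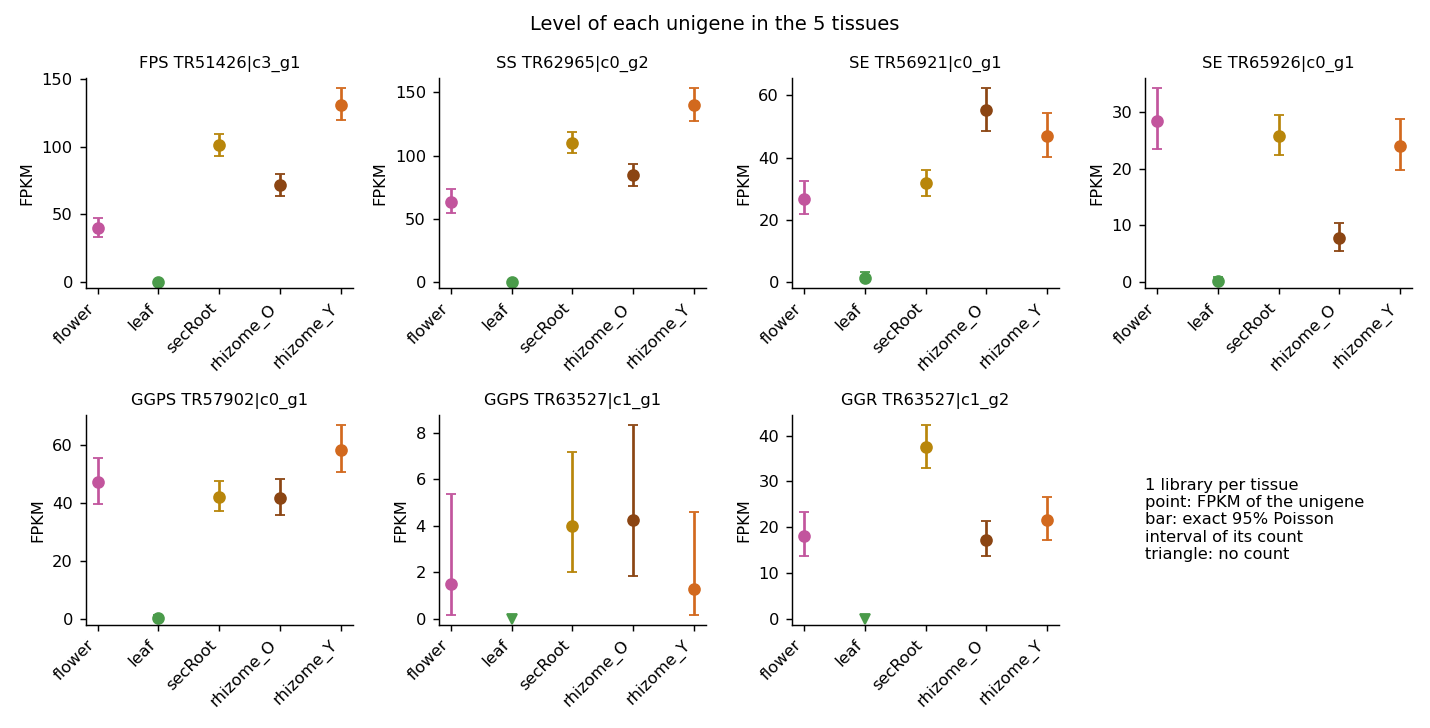
FPKM of each of the 7 unigenes (y axis, own linear scale per panel) in the 5 tissues (x axis), with the exact 95% Poisson interval of the count as a bar and a triangle where no count was found. Leaf lies at or near 0 in every panel; FPS and SS peak in rhizome_Y, while SE TR65926|c0_g1 drops to 7.68 FPKM in rhizome_O.

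FPS was represented by TR51426|c3_g1, with 2 contigs of 1420 and 1430 bp. It measured 39.7 FPKM (33.0 to 47.4) in flower, 0.17 FPKM in leaf from 1 count, 101 FPKM (93.3 to 109) in secRoot, 71.6 FPKM (63.8 to 80.1) in rhizome_O and 131 FPKM (119 to 143) in rhizome_Y. Every neighbour in the order rhizome_Y, secRoot, rhizome_O, flower was separated by more than counting error. The level in flower was 0.303 times that in rhizome_Y (0.247 to 0.371), and the level in rhizome_O was 0.547 times that in rhizome_Y (0.472 to 0.632). Both contigs gave the same direction in these comparisons.

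SS, the first enzyme committed to squalene, was represented by TR62965|c0_g2 with 4 contigs of 777 to 1624 bp. Its level was 63.6 FPKM (54.6 to 73.6) in flower, 0.15 FPKM in leaf from 1 count, 110 FPKM (102 to 119) in secRoot, 84.2 FPKM (75.6 to 93.6) in rhizome_O and 140 FPKM (127 to 153) in rhizome_Y. The order of the tissues was that of FPS, and again each neighbour was separated by more than counting error. All 4 contigs were lower in flower, secRoot and rhizome_O than in rhizome_Y. For secRoot over rhizome_O only 3 of the 4 gave the direction of the sum, with contig ratios of 0.889 to 1.47. The range was narrower than for FPS, with the highest of the 4 tissues 2.20 times the lowest against 3.30 times for FPS; the median over 15247 unigenes was 2.04. SS to FPS, as a ratio of counts, was 1.502 times as high in flower as in rhizome_Y (1.145 to 1.97), whereas between rhizome_O and rhizome_Y the same comparison gave 1.15 (0.937 to 1.41).

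When unigenes were ordered by the distance of their centred log2(FPKM + 1) profile over the 4 tissues, SS ranked 171 of 15434 by nearness to FPS. By nearness to FPS, the SE unigene TR56921|c0_g1 ranked 3507 and TR65926|c0_g1 ranked 11549. The rank depends on the direction, and FPS ranked 479 by nearness to SS. These are descriptions over 4 libraries, and the points share their depth. The single nearest unigene was TR11826|c0_g1 for FPS and TR47604|c0_g1 for SS, neither of which carries an enzyme name in the annotation used here.

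SE is encoded by more than 1 unigene, and the 2 labelled ones behaved differently. TR56921|c0_g1, assembled as 8 contigs of 396 to 1975 bp, measured 26.7 FPKM (21.7 to 32.4) in flower, 1.27 FPKM in leaf from 4 counts, 31.8 FPKM (27.8 to 36.2) in secRoot, 55.2 FPKM (48.7 to 62.3) in rhizome_O and 46.8 FPKM (40.3 to 54.2) in rhizome_Y. TR65926|c0_g1, with 2 contigs of 1771 and 1839 bp, measured 28.4 FPKM (23.4 to 34.2) in flower, 0.26 FPKM in leaf from 2 counts, 25.7 FPKM (22.3 to 29.4) in secRoot, 7.68 FPKM (5.56 to 10.3) in rhizome_O and 23.9 FPKM (19.7 to 28.8) in rhizome_Y. TR56921|c0_g1 was thus highest in both rhizomes, which did not differ beyond counting error, while TR65926|c0_g1 was level over flower, secRoot and rhizome_Y and low in rhizome_O alone of the 4. Rhizome_O held 43 counts of TR65926|c0_g1, against 112 counts in the smaller rhizome_Y library.

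In rhizome_O, TR65926|c0_g1 was 0.321 times its level in rhizome_Y (0.220 to 0.460), which is the 2.1 percentile of 6984 unigenes compared between these libraries. TR56921|c0_g1 was 1.18 times its level in rhizome_Y (0.971 to 1.43). Against rhizome_O, secRoot had 3.35 times as much TR65926|c0_g1 (2.4 to 4.76) and 0.575 times as much TR56921|c0_g1 (0.479 to 0.690). Both contigs of TR65926|c0_g1 were lower in rhizome_O than in rhizome_Y, at 0.275 and 0.385 times. Of the 8 contigs of TR56921|c0_g1, 5 were higher in rhizome_O than in rhizome_Y, with contig ratios of 0.607 to 2.94.

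The ratio of TR56921|c0_g1 to TR65926|c0_g1 was 0.939 (0.711 to 1.24) in flower, 1.24 (1.02 to 1.5) in secRoot, 7.19 (5.19 to 10.2) in rhizome_O and 1.96 (1.54 to 2.5) in rhizome_Y. In leaf it was 4.88 (0.700 to 54.0) from 4 and 2 counts, which shows no direction. As a ratio of count ratios, rhizome_O exceeded rhizome_Y by 3.72 times (2.46 to 5.70), secRoot by 5.53 times (3.77 to 8.25) and flower by 6.71 times (4.34 to 10.5). The excess in rhizome_O was present under each alternative tried for it, whereas the absolute ratio was not stable. With only the most abundant contig of each unigene the ratio was 0.513 in flower, 0.656 in secRoot, 3.83 in rhizome_O and 0.714 in rhizome_Y, so that TR65926|c0_g1 was then the higher one in secRoot and rhizome_Y. The 2 main contigs of TR56921|c0_g1 held 49.7% (rhizome_Y) to 67.8% (secRoot) of its counts in the 4 tissues, and the rest was spread over 6 others.

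**Figure D2:**
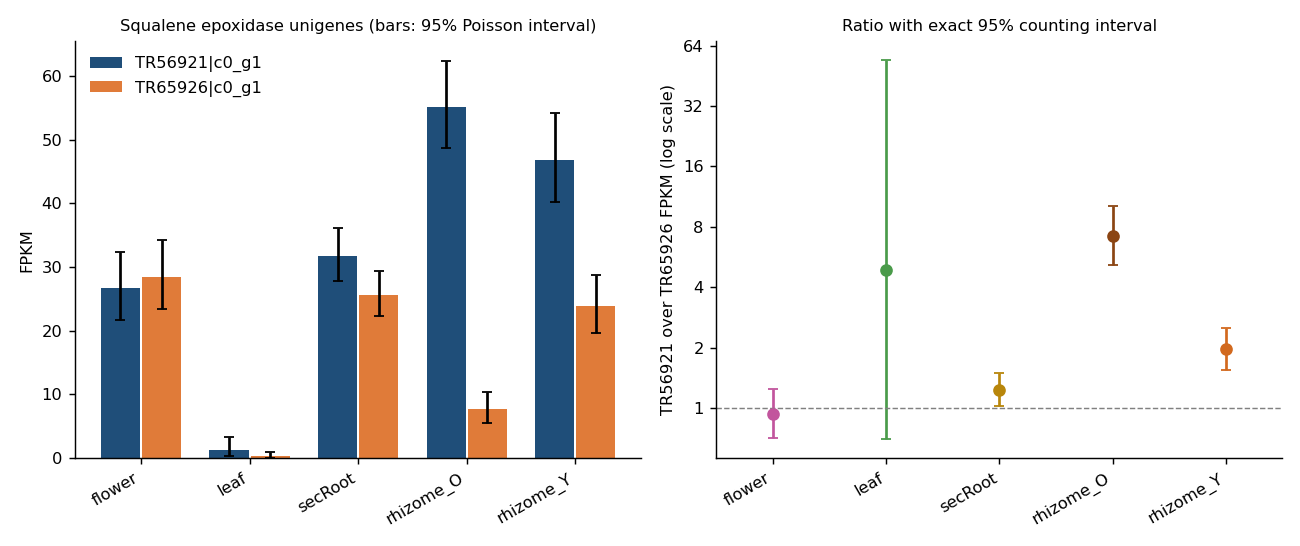
Left, FPKM of SE TR56921|c0_g1 (blue) and SE TR65926|c0_g1 (orange) in each tissue with exact 95% Poisson intervals; right, the ratio of their FPKM on a log axis with its exact 95% counting interval and a dashed line at 1. The ratio is 7.19 in rhizome_O and between 0.939 and 1.96 in flower, secRoot and rhizome_Y, while the leaf interval rests on 6 counts.

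Summed over both unigenes, the SE level differed little between tissues. The sum was 55.1 FPKM in flower, 1.53 FPKM in leaf, 57.4 FPKM in secRoot, 62.9 FPKM in rhizome_O and 70.8 FPKM in rhizome_Y, and rhizome_O was 0.888 times rhizome_Y (0.754 to 1.05). No neighbours in the order of the 4 tissues were separated beyond counting error, although flower was 0.779 times rhizome_Y (0.650 to 0.932). SS was lower in rhizome_O and in flower than in rhizome_Y, and the count ratio of SE to SS was 1.37 times as high in rhizome_O as in rhizome_Y (1.11 to 1.71) and 1.89 times as high in flower as in rhizome_Y (1.46 to 2.44). The profiles of the 2 SE unigenes were far apart, and TR65926|c0_g1 ranked 13495 of 15434 by nearness to TR56921|c0_g1. In the other direction, TR56921|c0_g1 ranked 11990 by nearness to TR65926|c0_g1. Nearest to TR56921|c0_g1 was TR64300|c0_g1 and nearest to TR65926|c0_g1 was TR60504|c1_g2, both without an enzyme name.

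On the geranylgeranyl side, GGPS TR57902|c0_g1 was the steadiest of the 7. It measured 47.0 FPKM (39.6 to 55.5) in flower, 0.36 FPKM in leaf from 2 counts, 42.1 FPKM (37.1 to 47.6) in secRoot, 41.7 FPKM (35.8 to 48.4) in rhizome_O and 58.4 FPKM (50.7 to 66.9) in rhizome_Y. Its highest level in the 4 tissues was 1.40 times its lowest, and no neighbours in the order were separated beyond counting error. Rhizome_O was still below rhizome_Y, at 0.715 times (0.581 to 0.878), as was secRoot at 0.721 times (0.598 to 0.870).

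The other GGPS unigene, TR63527|c1_g1, was a single contig of 706 bp with 23 counts in all. It measured 1.49 FPKM in flower, 0 in leaf, 4.01 FPKM in secRoot, 4.24 FPKM in rhizome_O and 1.27 FPKM in rhizome_Y, from 2, 0, 11, 8 and 2 counts in that order of tissues. Its ratio of rhizome_O to rhizome_Y, 3.34, had an interval of 0.666 to 32.3, so no order of tissues could be set at this depth.

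GGR TR63527|c1_g2, with 3 contigs of 1226 to 1635 bp, carries the same Trinity cluster and component number as that GGPS contig. It measured 18.1 FPKM (13.7 to 23.3) in flower, 0 in leaf, 37.5 FPKM (33.0 to 42.3) in secRoot, 17.2 FPKM (13.6 to 21.4) in rhizome_O and 21.5 FPKM (17.1 to 26.6) in rhizome_Y. The level in secRoot stood above the other 3, which did not differ from their neighbours beyond counting error. SecRoot had 1.74 times the level of rhizome_Y (1.36 to 2.26) and 2.18 times that of rhizome_O (1.69 to 2.84), with all 3 contigs in the same direction. Relative to GGPS TR57902|c0_g1, the count of GGR in secRoot was 2.46 times that in rhizome_Y (1.79 to 3.40). Leaf had no count, which allows up to 0.437 FPKM when 3 counts are taken as the limit, so leaf was at least 85.6-fold lower than secRoot.

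Summed over the labelled unigenes, the triterpene route exceeded the geranylgeranyl route in flower, secRoot, rhizome_O and rhizome_Y, and least so in flower. The summed levels of the triterpene and geranylgeranyl routes were 158 and 66.6 FPKM in flower, 269 and 83.5 FPKM in secRoot, 219 and 63.1 FPKM in rhizome_O, and 342 and 81.1 FPKM in rhizome_Y. The ratio was 2.38 (2.02 to 2.82) in flower, 3.21 (2.91 to 3.55) in secRoot, 3.47 (3.02 to 3.99) in rhizome_O and 4.21 (3.70 to 4.80) in rhizome_Y. In leaf the sums were 1.85 and 0.36 FPKM, and their ratio of 5.14 (1.03 to 49.7) rests on 8 and 2 counts. These sums add mRNA levels of different enzymes and are no measure of flux. Unlabelled unigenes are not in them, so the ratios hold for the labelled set only. In the GGPS and GGR cluster, TR63527|c0_g1, without a label, alone had 80.6 FPKM in flower, 82.7 FPKM in secRoot, 128 FPKM in rhizome_O and 104 FPKM in rhizome_Y.

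The count ratio of the routes in flower was 0.609 times that in rhizome_Y (0.493 to 0.754), and in secRoot 0.778 times (0.660 to 0.916). Between rhizome_O and rhizome_Y the interval of 0.712 to 1.04 around 0.862 included 1. The triterpene sum was 0.464 times as high in flower as in rhizome_Y (0.418 to 0.514), while the geranylgeranyl sum was 0.821 times as high (0.682 to 0.986). Flower was lowest in the route ratio under all alternatives tried, and rhizome_Y was highest in all but the one that left out GGR, where the ratio was 5.83 in secRoot and 5.73 in rhizome_Y. FPS against GGPS TR57902|c0_g1, enzymes that draw on the same prenyl diphosphate pool where they share a compartment, gave a count ratio in flower 0.379 times that in rhizome_Y (0.280 to 0.513).

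**Figure D3:**
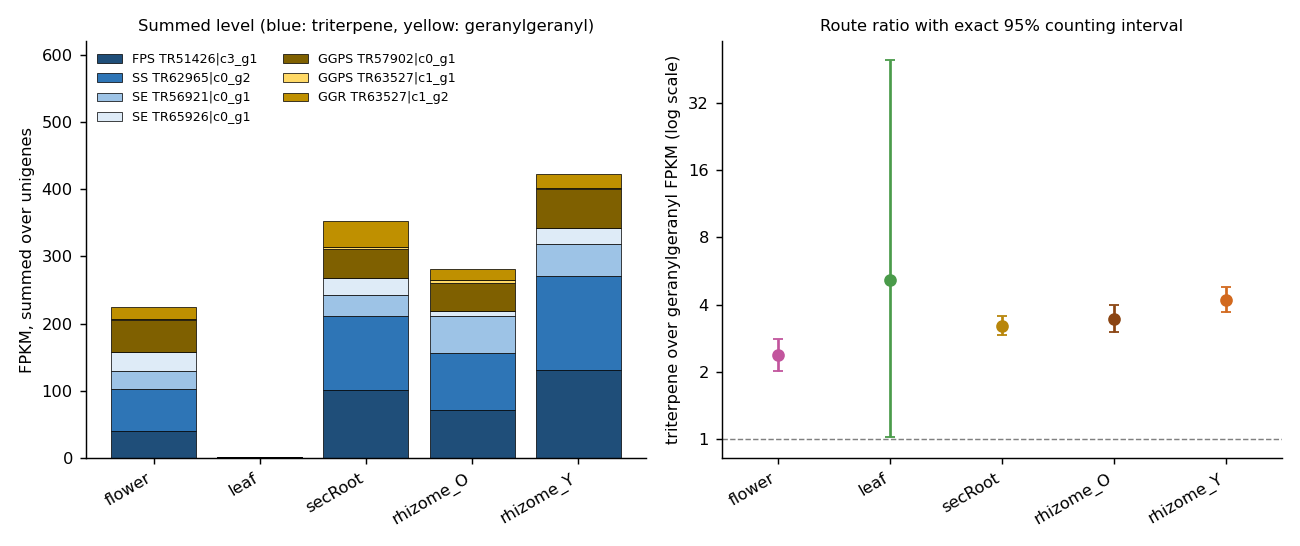
Left, FPKM of the 7 unigenes stacked per tissue, triterpene route in blue and geranylgeranyl route in yellow shades; right, the ratio of the summed routes on a log axis with its exact 95% counting interval and a dashed line at 1. The ratio is 2.38 in flower, 3.21 in secRoot, 3.47 in rhizome_O and 4.21 in rhizome_Y, and the leaf interval reaches 1.03.

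Counts of unigenes past 1.5-fold were read against all unigenes with at least 100 counts in either library of a pair. Between rhizome_O and rhizome_Y, 5 of the 7 had such counts; 3 of them, FPS, SS and SE TR65926|c0_g1, were at least 1.5-fold lower in rhizome_O, as were 13.5% of all 6986 unigenes, and none was higher, as were 15.3%. The median ratio was 0.602 over these 5 and 1.05 over all. GGPS TR57902|c0_g1 also passed 1.5-fold with TMM scaling, at 0.651 times. Between flower and rhizome_Y, 3 of 5 were lower in flower, against a background of 28.5%, and none was higher, against 23.9%. There the lower ones were FPS, SS and SE TR56921|c0_g1, and the median ratio was 0.570, against 0.934 over all. With only its most abundant contig, SE TR56921|c0_g1 was 0.821 times as high in flower as in rhizome_Y, which is no longer past 1.5-fold.

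Between secRoot and rhizome_Y, of 6 with enough counts, 1 (GGR) was at least 1.5-fold higher in secRoot, beside 21.0% of all unigenes, and none was lower, beside 13.3%, with a median ratio of 0.779 against 1.06 over all. Between secRoot and rhizome_O, SE TR65926|c0_g1 and GGR were higher in secRoot (2 of 6, beside 19.0% of all) and SE TR56921|c0_g1 was lower (1 of 6, beside 14.5% of all). FPS joined the higher ones under TMM scaling, at 1.54 times, and under median-of-ratios scaling, at 1.55 times. With so few unigenes these shares describe the set and do not set it apart.

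**Figure D4:**
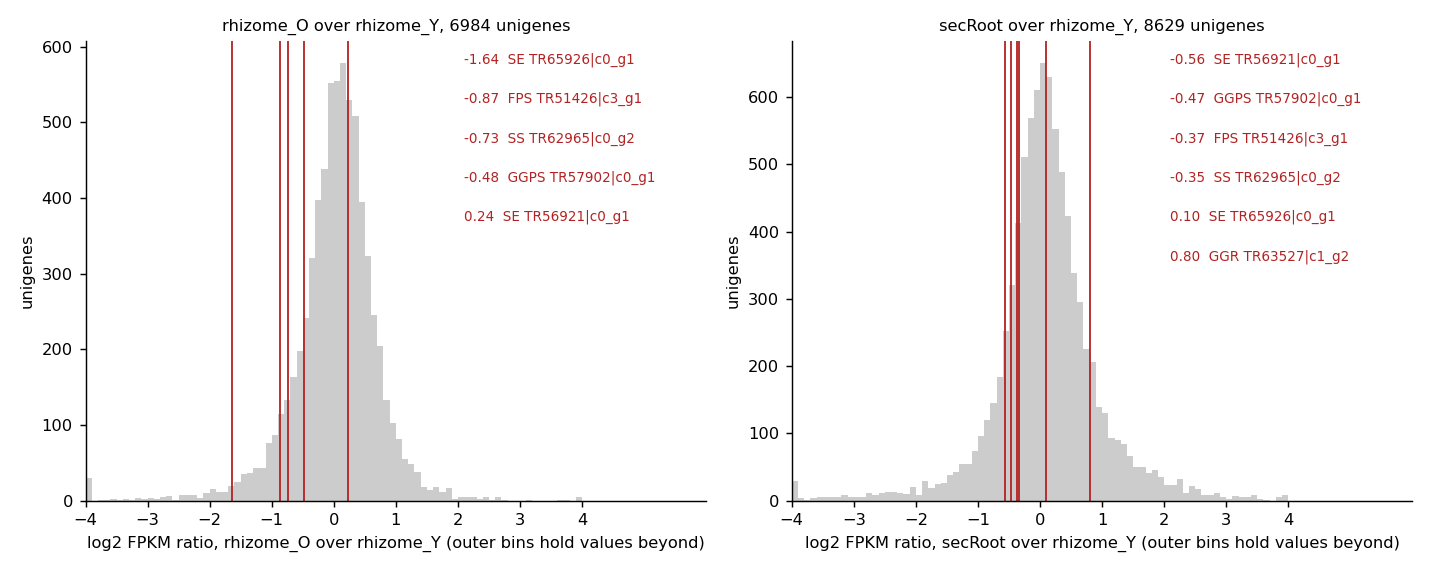
Histograms of the log2 FPKM ratio of rhizome_O over rhizome_Y (left, 6984 unigenes) and secRoot over rhizome_Y (right, 8629 unigenes) for unigenes with at least 100 counts in either library and a value in both; red lines and the lists mark the unigenes of the set that had such counts. On the left SE TR65926|c0_g1 lies at -1.64 and SE TR56921|c0_g1 at 0.24; on the right GGR lies at 0.80 and the other 5 between -0.56 and 0.10.

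The leaf values need the whole library as their frame. All 7 unigenes were below 5% of their mean in the other tissues, at 3.17% or less, and so were 97.7% of the 15435 unigenes with at least 100 counts outside leaf. The 7 had 10 counts between them in leaf. Being low in leaf was the common case and not particular to these enzymes. FPS in leaf was 0.0013 times its level in rhizome_Y (3.28e-05 to 0.00727), and SS 0.00107 times (2.71e-05 to 0.006).

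Leaf did hold unigenes with the same enzyme annotation. Of 8 unigenes annotated as squalene synthase in the KEGG list of the study, 5 were found in leaf alone, among them TR62965|c0_g1 with 23.3 FPKM (77 counts) and TR49172|c0_g1 with 21.1 FPKM (61 counts). TR62965|c0_g1 shares its Trinity component with the labelled SS unigene and had no count outside leaf. Over all 8, the sum was 83.9 FPKM in flower, 61.6 FPKM in leaf, 126 FPKM in secRoot, 103 FPKM in rhizome_O and 164 FPKM in rhizome_Y. The labelled unigenes came from a list that the study filtered by sequence length and similarity to other *Panax* species, whereas the annotation covered all unigenes. Whether this filter is why the leaf unigenes carry no label was not tested. For squalene synthase, leaf was 0.15 FPKM by the labelled unigene and 61.6 FPKM by the annotation. The 5 unigenes found in leaf alone were 228 to 869 bp long, and short contigs weigh heavily in summed FPKM. In counts, the annotated sum was 193 in flower, 149 in leaf, 675 in secRoot, 367 in rhizome_O and 477 in rhizome_Y.

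The same held for SE, whose KEGG name is squalene monooxygenase. TR68115|c1_g2, of 1770 bp, had 59.3 FPKM (381 counts) in leaf and no count elsewhere. The list names 30 contigs, of which 22 were used here, from 10 unigenes, and their sum was 93.8 FPKM in flower, 60.9 FPKM in leaf, 76.5 FPKM in secRoot, 88.6 FPKM in rhizome_O and 122 FPKM in rhizome_Y. Outside leaf the unlabelled SE unigenes had only 26 to 28 counts per library, against 214 to 436 for the 2 labelled ones, on short contigs that weigh heavily in FPKM. How reads of near-identical copies were divided between such unigenes cannot be told from the counts.

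**Figure D5:**
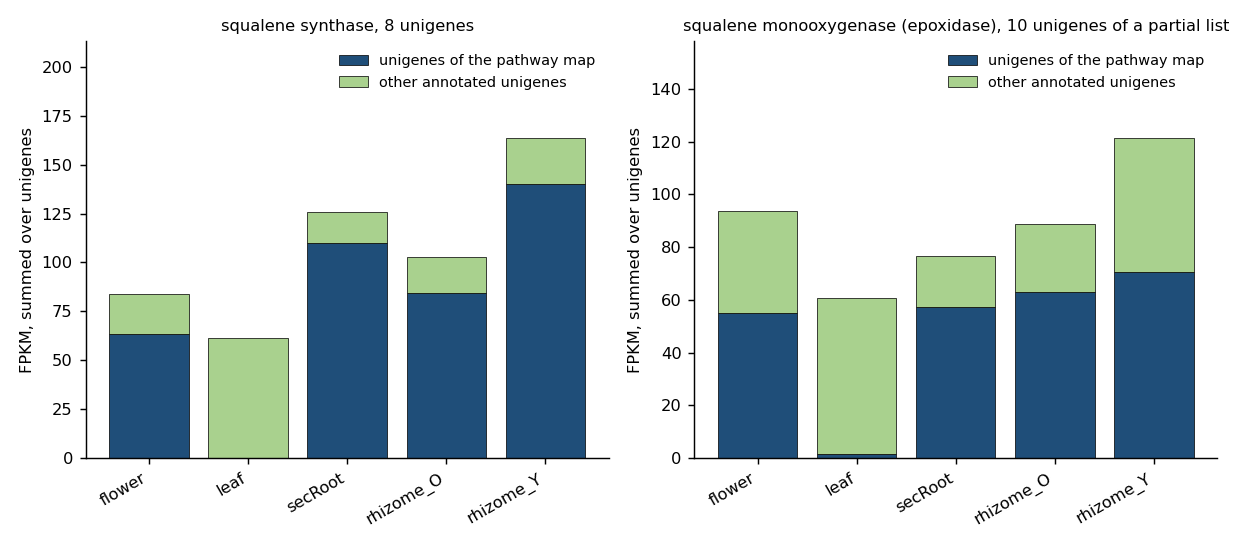
Summed FPKM of unigenes annotated as squalene synthase (left) and squalene monooxygenase (right, from a list used in part), split into the unigenes of the pathway map (blue) and other annotated unigenes (green), per tissue. In leaf nearly all of the 61.6 and 60.9 FPKM comes from unlabelled unigenes.

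Other contigs in the Trinity cluster of FPS showed the same division, whereas those in the GGPS and GGR cluster had no count in leaf. In the FPS cluster, TR51426|c2_g1 had 59.6 FPKM in leaf (60 counts) and at most 1 count in any other tissue, whereas TR51426|c0_g1, of 279 bp, had 6.31 FPKM in flower, none in leaf, 42.1 FPKM in secRoot, 47.5 FPKM in rhizome_O and 78.5 FPKM in rhizome_Y. In the GGPS and GGR cluster, TR63527|c0_g1 had 80.6 FPKM in flower, none in leaf, 82.7 FPKM in secRoot, 128 FPKM in rhizome_O and 104 FPKM in rhizome_Y. A shared cluster number reflects overlap in assembly, and none of these carries a label of the pathway map.

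Of the neighbouring steps, 14 labelled unigenes of the mevalonate pathway and the cyclases were set beside the 7. Of these, 11 had at least 100 counts in the 4 tissues, and 7 of the 11 were highest in rhizome_Y (17.8% of all unigenes), 3 in flower (33.0% of all) and 1 in rhizome_O (23.8% of all). Among those with fewer, acetyl-CoA acetyltransferase (AACT TR61952|c0_g1) had 46.9 FPKM in leaf (306 counts) and at most 1 count in any other tissue. Hydroxymethylglutaryl-CoA synthase (HMGS TR59102|c0_g1) had 25.6 FPKM in leaf (106 counts) and none elsewhere. No other unigene of the 14 exceeded 0.66 FPKM in leaf. Between rhizome_O and rhizome_Y, 2 of 9 with at least 100 counts in either library were at least 1.5-fold lower in rhizome_O (13.5% of all) and none was higher (15.3% of all), with a median ratio of 0.712, against 0.602 for the set. Upstream, isopentenyl diphosphate isomerase (IPI TR61651|c0_g1), which makes the allylic starter unit for FPS and GGPS, was 229 FPKM in flower, 0.51 FPKM in leaf, 164 FPKM in secRoot, 199 FPKM in rhizome_O and 189 FPKM in rhizome_Y. It lacked the low flower value of FPS. Mevalonate diphosphate decarboxylase (MDD TR63099|c0_g1) had the order of FPS and SS, with 37.5 FPKM in flower, 0.24 FPKM in leaf, 90.8 FPKM in secRoot, 74.8 FPKM in rhizome_O and 115 FPKM in rhizome_Y.

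Downstream, the summed cyclases that use 2,3-oxidosqualene differed between tissues far more than the sum of both SE unigenes did. The 2 dammarenediol synthase (DS) and 2 amyrin synthase (AS) unigenes summed to 84.1 FPKM in flower, 0.37 FPKM in leaf, 152 FPKM in secRoot, 369 FPKM in rhizome_O and 537 FPKM in rhizome_Y. Over the sum of both SE unigenes this was 1.53 (1.28 to 1.82) in flower, 2.65 (2.38 to 2.96) in secRoot, 5.87 (5.21 to 6.63) in rhizome_O and 7.59 (6.74 to 8.59) in rhizome_Y, with 0.242 (0.0502 to 1.02) in leaf from 4 and 6 counts. AS made up most of it in both rhizomes, at 289 FPKM in rhizome_O and 414 FPKM in rhizome_Y, against 49.7 FPKM in flower. The DS sum ranged less, from 34.5 FPKM in flower to 123 FPKM in rhizome_Y. For comparison, SE TR65926|c0_g1 alone ran from 7.68 FPKM in rhizome_O to 28.4 FPKM in flower.

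Farnesyl diphosphate is also drawn on by sesquiterpene synthases. The 8 unigenes annotated as germacradienol, germacrene-A or cadinene synthase summed to 227 FPKM in flower (267 counts), 0.43 FPKM in leaf (2 counts), 55.7 FPKM in secRoot (258 counts), 103 FPKM in rhizome_O (265 counts) and 252 FPKM in rhizome_Y (507 counts). Flower, the lowest of the 4 tissues in FPS and SS, was therefore second only to rhizome_Y in this sum. Among the 8, TR65397|c2_g1 had 128 FPKM in flower from 202 counts and 112 FPKM in rhizome_Y from 381 counts. For this unigene FPKM and counts thus ordered flower and rhizome_Y differently. On the geranylgeranyl side, 3 unigenes annotated as chlorophyll synthase, which attaches the chain to the pigment, summed to 15.6 FPKM in flower, 47.4 FPKM in leaf, 7.49 FPKM in secRoot, 13.7 FPKM in rhizome_O and 26.2 FPKM in rhizome_Y. In whole tissues, fewer cells that express a gene and less of its RNA per cell cannot be told apart.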

How the data were processed

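Reads were trimmed by the authors with Trimmomatic and assembled over all tissues with Trinity. Each library was then mapped with Bowtie 2 and quantified with RSEM; no reference genome was used. The deposited expected counts are fragments assigned to each contig, and all were whole numbers. The deposited FPKM divide them by effective contig length and library depth. The deposited TPM come from the same run by the authors, scaled to a common sum.

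Contigs were summed to unigenes by Trinity gene identifier. With 1 library per tissue no test was made. Intervals of 95% are exact Poisson (levels) or exact conditional (ratios) for the counts, and are rescaled to FPKM. For sums of contigs or unigenes the interval treats the summed count as 1 count. The ratio intervals of single unigenes were run on simulated Poisson counts, drawn without contigs or variation between replicates. That run checks the calculation only. A fold of 1.5, a minimum of 100 counts and, for a count of 0, a limit of 3 counts were used. The unigenes, enzyme lists and comparisons were chosen with earlier results of these data known. Unigenes named were the 7, those sharing their Trinity cluster (at most the highest 2 each), those annotated as squalene synthase or epoxidase, the nearest profiles, and neighbouring steps; the enzyme list was used in part. Alternatives were TPM, plain counts, another length, the most abundant contig, TMM and median-of-ratios scaling (edgeR 4.0.16, R 4.3.3; Python 3.11.15, scipy 1.17.1), other members of a route, other pseudocounts (0.1 for 1) and limits. Contig sequences were not used here.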

Additional observations from a re-analysis of the deposited data

How the results depend on the processing

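No paired analysis was possible because each tissue has 1 library, and for the same reason no replicate could be left out. The size of both main ratios depended on how contigs and unigenes were summed. The route ratio with the most abundant contig per unigene was 1.54 in flower, 2.84 in secRoot and 2.63 in rhizome_O. As a mean over the unigenes of a route it was 1.78 in flower, 2.41 in secRoot, 2.60 in rhizome_O and 3.16 in rhizome_Y. Without GGR it was 3.26 in flower, 5.83 in secRoot, 4.76 in rhizome_O and 5.73 in rhizome_Y. Without SE it was 1.55 in flower, 0.889 in leaf, 2.53 in secRoot, 2.47 in rhizome_O and 3.34 in rhizome_Y, and the turn in leaf rests on 2 counts per route. The SE ratio with the most abundant contig was 0.513 in flower, 0.656 in secRoot, 3.83 in rhizome_O and 0.714 in rhizome_Y, so secRoot and rhizome_Y changed direction; with the length of the longest contig it was 1.01 in secRoot and 1.496 in rhizome_Y. In both settings rhizome_O stayed the highest of the 4 tissues, and flower the lowest. With leaf entered, the nearness rank of SS to FPS was 44 and that of TR57902|c0_g1 to TR65926|c0_g1 was 3642. A minimum of 20 counts ranked 30263 unigenes in place of 15434, and the ranks were 325 for SS to FPS (1.07% of the list, against 1.11%), 25309 for TR65926|c0_g1 to TR56921|c0_g1 (83.6% against 87.4%), 4807 for TR57902|c0_g1 to TR65926|c0_g1 (15.9% against 14.7%) and 17777 for FPS to TR57902|c0_g1 (58.7% against 68.2%). Of 112 alternative values of single ratios between tissues, 107 stayed within the counting interval and 5, all with the most abundant contig, did not. TMM scaling shifted all log2 ratios of flower over rhizome_Y by -0.13, of rhizome_O over rhizome_Y by -0.13 and of secRoot over rhizome_O by 0.13. It turned the last ratio of TR63527|c1_g1 to 1.03, against 0.946, where the interval of 0.346 to 2.71 included 1. Counts past 1.5-fold moved by 1 unigene at most. The depth limits leaf (10 counts over the 7 unigenes) and TR63527|c1_g1 (23 counts) most.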
